A study of Mus musculus with 6 samples.

Results

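The genes described here encode 10 surface or secreted proteins through which macrophages pass activating or inhibitory signals to T cells, or receive them. They are the co-stimulatory ligands Cd80, Cd86 and Icosl, the co-stimulatory receptor Cd40, the PD-1 ligands Cd274 (PD-L1) and Pdcd1lg2 (PD-L2), the inhibitory receptor Havcr2 (TIM-3) with its reported ligand Lgals9 (galectin-9), and the receptor Sirpa with its ligand Cd47. The genes were taken by symbol from a table of read counts, and all 10 were found among its 16519 genes. All 10 also passed the filter on low counts, which left 12605 genes for the test.

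The counts came from bulk RNA sequencing of bone marrow derived macrophages (BMDMs), that is, macrophages cultured from mouse marrow cells. The 3 libraries called KO are from mice that carry floxed Trmt61a alleles together with LysmCre. The 3 libraries called WT are from mice with the same floxed alleles and no Cre. Trmt61a codes for the catalytic part of the tRNA m1A methyltransferase, which adds N1-methyladenosine (m1A) to tRNAs. LysmCre is a recombinase expressed from the Lyz2 locus in myeloid cells. Because Cre was present in KO and absent in WT, an effect of Cre and an effect of losing Trmt61a cannot be told apart. The labels used here give neither the age of the mice nor any stimulus of the cells. Whether the libraries of 1 genotype stem from different mice or cultures is not stated, so p-values reflect only the spread among these libraries, and that spread may be technical.

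T cells need a signal beyond antigen to become activated. CD80 and CD86 on antigen-presenting cells deliver it through CD28, and the inhibitory receptor CTLA-4 competes for the same ligands. ICOSL engages ICOS, a relative of CD28, while CD40 receives CD40 ligand from helper T cells and raises the expression of co-stimulatory ligands. PD-L1 and PD-L2 bind PD-1 on T cells and dampen their responses, and PD-L1 is known as an interferon-induced gene in macrophages. CD47 is present on most cells and, through SIRPA on macrophages, inhibits their phagocytosis.

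The libraries held between 37021855 (WT 1) and 41033179 (WT 3) counts. Trmt61a was at 0.530, 0.755 and 0.539 CPM (counts scaled to a common library size) in KO 1, KO 2 and KO 3, against 4.96, 3.89 and 5.06 CPM in WT 1, WT 2 and WT 3, so KO kept 13.1% of the WT level (log2 fold change -2.92, SE 0.28, edgeR adjusted p = 0.00219). The 9 macrophage markers were all detected, and Csf1r, the receptor for the macrophage growth factor CSF-1, averaged 4444 ± 609 CPM in KO libraries and 4464 ± 420 CPM in WT libraries (SD, n = 3 each). Adgre1, the gene for F4/80, averaged 2236 ± 146 CPM in KO libraries and 2186 ± 203 CPM in WT libraries. The T cell markers summed to between 69.6 and 77.3 CPM in KO and between 71.5 and 84.0 CPM in WT, nearly all of it Cd4, at 72.3 ± 3.74 CPM in KO libraries and 75.3 ± 6.85 CPM in WT libraries (SD, n = 3 each). Of the other T cell markers, Thy1 reached 0.554 CPM and Lck 0.244 CPM, while Cd3e, Cd3d, Cd3g and Cd8a lay at or below 0.176 CPM in every library and each at 0 in at least 2, where 3 counts correspond to between 0.0730 and 0.0813 CPM. The NK cell markers, with Klrk1 and Klrb1c the highest, summed to between 0.212 and 0.554 CPM in KO and between 0.176 and 0.536 CPM in WT. B cell markers, with Cd79b and Ebf1 the highest, summed to between 9.01 and 14.8 CPM in KO and between 8.74 and 16.4 CPM in WT. Of the dendritic cell markers, Flt3, Zbtb46, Clec9a, Dpp4, Ccr7 and Cd209a were at or below 1.19 CPM in every library, Siglech lay between 1.20 and 1.43 CPM and Batf3 between 1.51 and 3.58 CPM, while Itgax, which macrophages also express, was at 209 ± 71.9 CPM in KO libraries and 178 ± 54.9 CPM in WT libraries (SD, n = 3 each). The neutrophil markers, with Ngp and S100a9 the highest, summed to between 1610 and 2577 CPM in KO and between 1620 and 2949 CPM in WT. Fibroblast markers, with Col1a2 and Col1a1 the highest, summed to between 96.8 and 233 CPM in KO and between 96.5 and 150 CPM in WT, and mast cell and basophil markers, with Kit and Gata2 the highest, to between 4.43 and 7.43 CPM in KO and between 6.23 and 13.2 CPM in WT.

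Promoter sequences of RefSeq (build GRCm38.p6, the assembly of mm10) were matched for 7 of the 10 genes, each from 250 bases before to 50 bases after the start site that the promoter table uses. That site need not be the outermost start of the gene: for Cd274 it lies 5331 bases inside the span of the gene. Those of Cd274 and Pdcd1lg2 are printed because these genes share a receptor and lie 22823 bases apart on chromosome 19, yet were expressed at very different levels. That of Lgals9 is printed because it and Cd274 were the matched genes with an ISRE core, the element bound by interferon-activated factors. Capitals mark matches, on either strand, to the motifs named after the sequences.
Cd274 promoter, chr19:29367188-29367487, plus strand: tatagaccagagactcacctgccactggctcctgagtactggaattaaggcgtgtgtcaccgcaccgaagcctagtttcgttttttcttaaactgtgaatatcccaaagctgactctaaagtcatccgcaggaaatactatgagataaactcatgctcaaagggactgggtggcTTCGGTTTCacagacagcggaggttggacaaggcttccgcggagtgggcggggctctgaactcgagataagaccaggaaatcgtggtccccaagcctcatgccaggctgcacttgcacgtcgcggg
Pdcd1lg2 promoter, chr19:29410669-29410968, plus strand: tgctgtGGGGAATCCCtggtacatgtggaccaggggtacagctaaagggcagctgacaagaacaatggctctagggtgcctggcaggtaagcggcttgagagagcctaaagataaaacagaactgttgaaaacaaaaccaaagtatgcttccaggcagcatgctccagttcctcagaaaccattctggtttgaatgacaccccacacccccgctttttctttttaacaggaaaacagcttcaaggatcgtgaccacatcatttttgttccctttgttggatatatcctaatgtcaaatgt
Lgals9 promoter, chr11:78984875-78985174, minus strand: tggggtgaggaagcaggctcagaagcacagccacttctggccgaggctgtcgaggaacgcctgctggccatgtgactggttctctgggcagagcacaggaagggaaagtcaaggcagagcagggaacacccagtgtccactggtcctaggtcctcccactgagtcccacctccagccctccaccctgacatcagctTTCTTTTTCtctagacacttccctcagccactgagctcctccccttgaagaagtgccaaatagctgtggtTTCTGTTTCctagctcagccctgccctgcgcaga
The motifs searched on both strands were GAS (TTCNNNGAA), the ISRE core (GAAANNGAA) and the NF-kB consensus. They were present in 8.30%, 8.56% and 4.51% of all 32851 promoter windows of this length. Cd274 held 1 match to the ISRE core, starting 76 bases before the start site of its window, and Lgals9 held 2, starting 54 bases before and 16 bases after that of its own. A longer core with a further A at its end, searched first, matched Lgals9 but not Cd274 and was present in 3.44% of all windows. Pdcd1lg2 held 1 match to the NF-kB consensus, 244 bases before its start site, and GAS was not found in any of the 7 genes' windows. None of the printed matches overlapped another. The Cd274 window had 15 CpG pairs and 52.7% GC, that of Pdcd1lg2 had 3 CpG pairs and 46.0% GC, and the median over all windows was 7 CpG pairs and 52.7% GC.

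Levels of different genes were compared as CPM per kilobase of merged exon. On this scale Sirpa stood far above the other 9 genes, at 601 ± 21.4 in KO and 620 ± 38.7 in WT (SD, n = 3 each). It lay at the percentile 99.7 of all tested genes with a known length and made up 84.5% of the summed level of the 10 genes. Lgals9 followed at 44.6 ± 4.22 in KO and 41.8 ± 1.03 in WT, and Cd47 at 24.3 ± 1.78 in KO and 23.7 ± 0.488 in WT. Cd274 was at 12.5 ± 0.587 in KO and 11.9 ± 1.29 in WT, and Cd86 at 12.2 ± 1.25 in KO and 10.7 ± 1.86 in WT. Their ranges over the 6 libraries, 10.5 to 13.1 for Cd274 and 9.13 to 13.6 for Cd86, overlapped, and Cd274 was the higher of them in 5 of 6 libraries. The ranges of Havcr2 (5.96 to 6.95), Icosl (4.96 to 6.60) and Cd80 (4.01 to 6.20) overlapped too. Havcr2 exceeded Icosl in 4 of 6 libraries, and each of them exceeded Cd80 in 6 of 6. Cd40 came next at 3.11 to 3.97, just below the lowest Cd80 value. Pdcd1lg2 was lowest, at 0.307 ± 0.0677 in KO and 0.420 ± 0.0131 in WT, at the percentile 11.8 of all tested genes. The gene for PD-L1 was thus 40.6 times as abundant per kilobase as that for PD-L2 in KO and 28.3 times in WT, and that for CD86 exceeded that for CD80 2.62 times in KO and 2.03 times in WT.

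**Figure D1:**
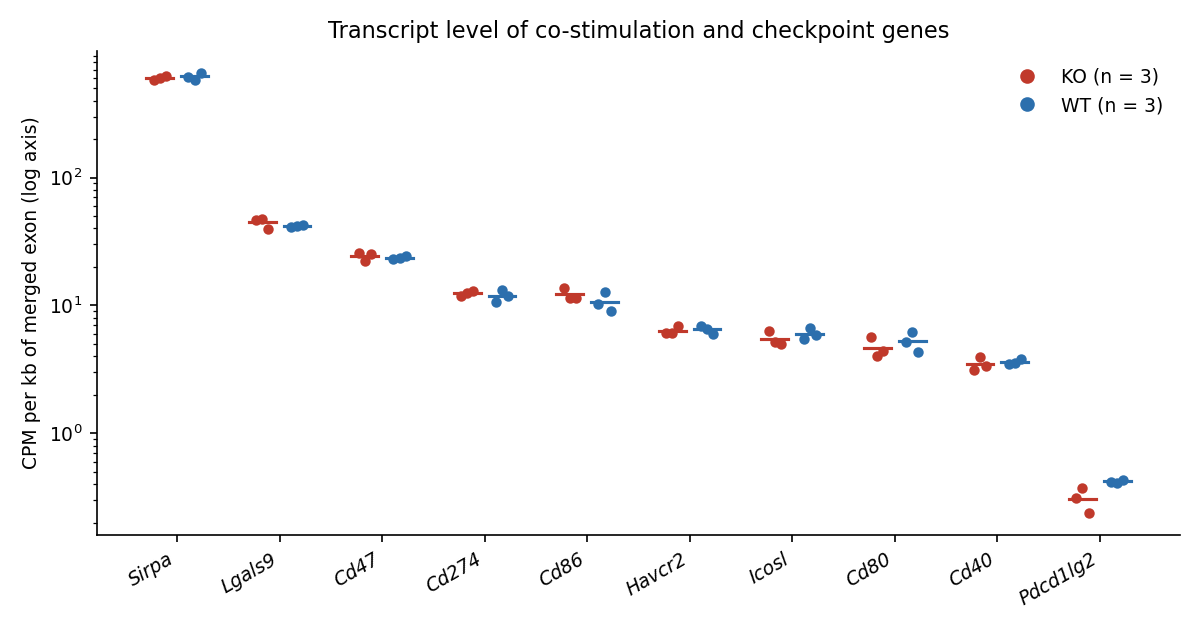
CPM per kilobase of merged exon (log axis) of the 10 genes in each KO library (red, left of each pair) and each WT library (blue, right), with horizontal lines at the group means. Sirpa lies between 581 and 661, Pdcd1lg2 between 0.237 and 0.435, and the KO and WT points of the other genes overlap.

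None of the 10 transcripts passed the test between KO and WT macrophages. With edgeR's quasi-likelihood test and Benjamini-Hochberg adjustment over all 12605 tested genes at a threshold of 0.05, 0 of the 10 passed, where 0.0317% of all tested genes did (4 genes, which were Trmt61a, Lyz2, Lyz1 and Cd163). At an unadjusted p under 0.05 there were 0 of 10 in edgeR, DESeq2 or limma voom, against 3.10% of all tested genes in edgeR. Of the 10, 4 had a log2 fold change above 0 and 6 below 0, with a median of -0.04, beside 50.0% above 0 and a median of 8.37e-05 over all tested genes. The values of the genotypes were fully separate for 1 of the 10, Pdcd1lg2, and for 8.65% of all tested genes. The 95% interval of the fold change lay within 1.5-fold in either direction for 9 of the 10, Pdcd1lg2 being the exception, and for 72.4% of all tested genes. Bulk RNA cannot tell fewer cells that express a gene from less RNA in each cell.

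The genes for the CD28 ligands had fold changes on opposite sides of 0, and neither passed. Cd86 (Entrez Gene 12524, chromosome 16, 36568956 to 36666158, mm10) was at 50.0, 42.0 and 42.0 CPM in KO 1, KO 2 and KO 3, against 37.3, 46.6 and 33.4 CPM in WT 1, WT 2 and WT 3. Only WT 2 reached into the KO range, and KO 1 lay above every other library. The log2 fold change was 0.19 with a 95% interval from -0.09 to 0.47 (edgeR adjusted p = 0.999949). Cd80 (Entrez Gene 12519, chromosome 16, 38457430 to 38495958) was at 20.8, 14.8 and 16.2 CPM in KO and at 19.3, 23.0 and 16.1 CPM in WT, in the order of replicate number. Its lowest value was in KO 2 and its highest in WT 2, and the genotypes overlapped. The log2 fold change was -0.17 with an interval from -0.53 to 0.18. Of RefSeq's genes, 3 without a row in the count table lie within the Cd80 locus, and the labels do not say how strand was treated in the counting.

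Icosl, the ligand gene of ICOS, was at 29.4, 24.0 and 22.9 CPM in KO 1, KO 2 and KO 3, against 25.0, 30.5 and 27.1 CPM in WT 1, WT 2 and WT 3. KO 1 and WT 2 were the highest libraries of their genotypes, as they were for Cd80 and Cd86. The log2 fold change was -0.11 with an interval from -0.36 to 0.13. The RefSeq gene Gm51775, for which no counts were given, overlaps the Icosl locus. Cd40, the receptor for CD40 ligand, was at 10.6, 13.5 and 11.4 CPM in KO and at 12.0, 12.0 and 13.0 CPM in WT, in the same order. The KO libraries held both the lowest and the highest Cd40 value, and the log2 fold change was -0.06 with an interval from -0.33 to 0.22.

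Cd274 (Entrez Gene 60533, chromosome 19, 29362107 to 29388095) had between 1409 and 1934 counts in each library. It was at 43.1, 44.9 and 47.3 CPM in KO 1, KO 2 and KO 3, against 38.2, 47.5 and 43.2 CPM in WT 1, WT 2 and WT 3. The 3 KO values lay inside the WT range. The log2 fold change was 0.07 with an interval from -0.12 to 0.26. The RefSeq gene Plgrkt overlaps the start of this locus, and Gm36043, for which no counts were given, overlaps the locus too. Pdcd1lg2 (Entrez Gene 58205, chromosome 19, 29410919 to 29472927) had only 23, 29 and 19 counts in KO 1, KO 2 and KO 3, against 30, 32 and 35 counts in WT 1, WT 2 and WT 3. Its level was 0.610, 0.730 and 0.465 CPM in KO and 0.813, 0.804 and 0.852 CPM in WT. Each KO library lay below each WT library, and KO kept 73.1% of the WT mean. The log2 fold change of -0.45 had an interval from -1.39 to 0.49 (edgeR adjusted p = 0.999949). No difference was detected, and the wide interval covers both 0 and a clear decrease.

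Havcr2, the TIM-3 receptor gene, was at 16.4, 16.6 and 18.8 CPM in KO 1, KO 2 and KO 3, against 18.9, 17.8 and 16.2 CPM in WT 1, WT 2 and WT 3. The genotypes spanned nearly the same range, and the log2 fold change was -0.03 with an interval from -0.26 to 0.20. Lgals9 was at 100.2, 101.0 and 85.0 CPM in KO and at 87.1, 89.7 and 91.4 CPM in WT, in the same order. KO 1 and KO 2 lay above all WT libraries and KO 3 below them. The log2 fold change was 0.09 with an interval from -0.07 to 0.25.

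Sirpa (Entrez Gene 19261, chromosome 2, 129591042 to 129632228) was the most deeply sampled of the 10, with 107683 to 133270 counts in a library. It was at 2855, 2932 and 3063 CPM in KO 1, KO 2 and KO 3, against 3018, 2867 and 3245 CPM in WT 1, WT 2 and WT 3. The genotypes overlapped, and the log2 fold change was -0.05 with an interval from -0.19 to 0.10. Sirpa has close paralogs to which its reads could be assigned. Of these, Sirpb1a, Sirpb1b and Sirpb1c together had 0.439% of the Sirpa counts, summed over the 6 libraries. How reads that match several of these genes were counted is not stated, so the Sirpa counts are uncertain in that respect. Cd47 was at 160, 140 and 157 CPM in KO and at 145, 149 and 152 CPM in WT, in the same order. KO 2 was the lowest library and KO 1 the highest. The log2 fold change was 0.04 with the narrowest of the 10 standard errors, 0.06, and an interval from -0.10 to 0.17. The RefSeq gene Gm4633, for which no counts were given, overlaps the Cd47 locus.

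**Figure D2:**
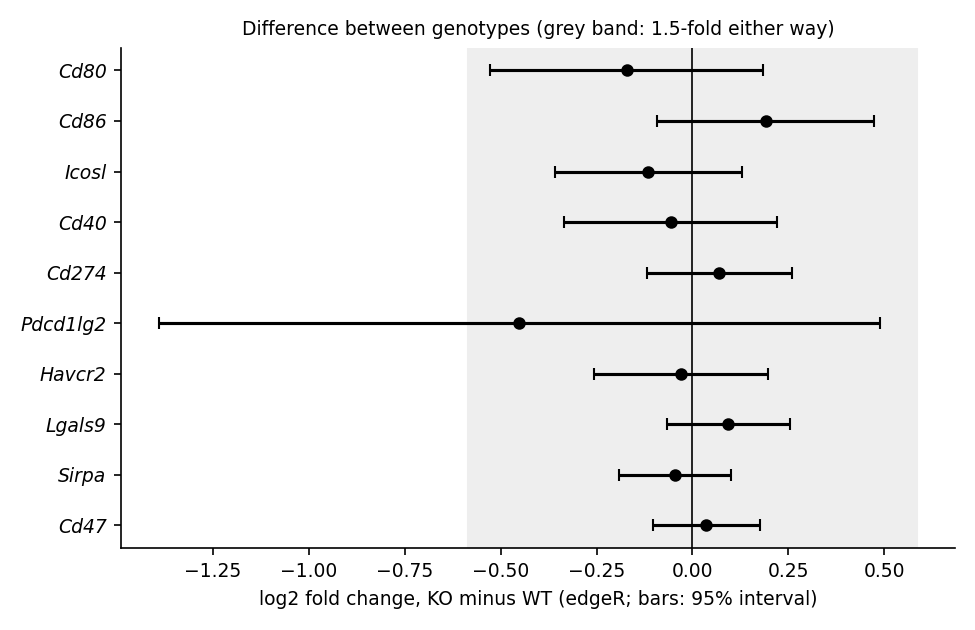
Log2 fold change of each gene, KO minus WT (points), with its 95% interval from edgeR (bars), beside a grey band of 1.5-fold in either direction. The intervals of 9 genes stay inside the band and cross 0, and that of Pdcd1lg2 runs from -1.39 to 0.49.

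Ratios within a library do not depend on how libraries are scaled, so ligands of 1 receptor, and receptors with their ligands, were compared as ratios of counts. The 4 ratios were chosen with earlier results of these data known. The ratio of Cd86 to Cd80 was 2.40, 2.83 and 2.60 in KO 1, KO 2 and KO 3, against 1.93, 2.03 and 2.08 in WT 1, WT 2 and WT 3. Every KO library lay above every WT library, and the log2 ratio was higher in KO by 0.37 (means 1.38 ± 0.12 in KO and 1.01 ± 0.05 in WT, SD, n = 3 each). The exact two-sided permutation p was 0.1, the smallest that 3 against 3 libraries allow, and 0.2 after Benjamini-Hochberg adjustment over the 4 ratios. The ratio of Cd274 to Pdcd1lg2 was 70.7, 61.5 and 102 in KO, against 47.0, 59.2 and 50.7 in WT, in the order of replicate number. These did not overlap either, though KO 2 and WT 2 were close, and the log2 ratio was higher in KO by 0.54 (exact permutation p = 0.1, adjusted p = 0.2). When single libraries were left out, the difference lay between 0.34, without KO 3, and 0.69. Its denominator is the 19 to 35 Pdcd1lg2 counts of each library, and the Pdcd1lg2 level alone was already separate between the genotypes. The share of ratios of other gene pairs that separate the genotypes was not determined. Whether the separation of these ratios is unusual is therefore not known.

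The ratio of Sirpa to Cd47 was 17.8, 21.0 and 19.5 in KO 1, KO 2 and KO 3, against 20.8, 19.3 and 21.4 in WT 1, WT 2 and WT 3. The genotypes overlapped (log2 difference -0.08, exact permutation p = 0.5, adjusted p = 0.6). The ratio of Havcr2 to Lgals9 was 0.164, 0.165 and 0.221 in KO and 0.217, 0.198 and 0.177 in WT. It overlapped as well, with the highest value in KO 3 (log2 difference -0.12, exact permutation p = 0.6, adjusted p = 0.6).

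**Figure D3:**
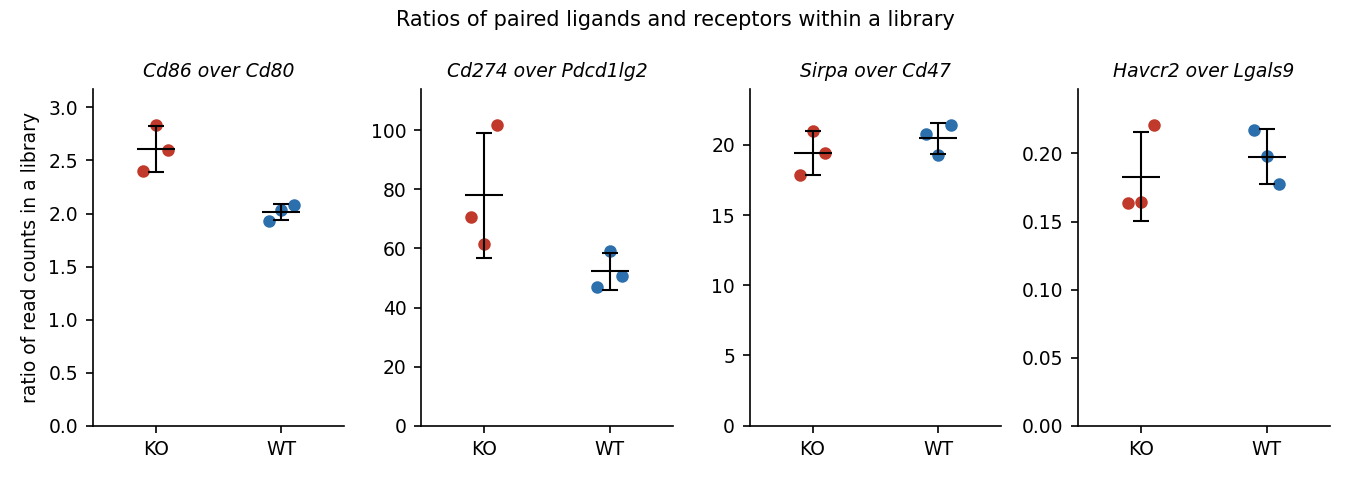
Ratio of read counts within each library for 4 pairs of genes, with KO libraries left (red) and WT libraries right (blue); black marks show the mean and SD (n = 3 each). KO and WT points are separate for Cd86 over Cd80 and for Cd274 over Pdcd1lg2, and overlap for the other pairs.

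Within a genotype, the genes were highest in different libraries. Cd80, Cd86 and Icosl, 3 of the 10, were each highest in KO 1 among KO libraries and in WT 2 among WT libraries, a combination seen for 20.0% of all tested genes. Cd40, Pdcd1lg2 and Lgals9, another 3 of the 10, were highest in KO 2 and WT 3, as were 11.1% of all tested genes. Relative to the mean of the 6 libraries on the log2 scale, Cd86 stood at 0.26 in KO 1 and 0.17 in WT 2, Cd80 at 0.19 and 0.33, and Icosl at 0.16 and 0.21. Csf1r was also highest in these libraries, at 0.21 in KO 1 and 0.15 in WT 2, as was Cd28, which encodes the receptor for CD80 and CD86 known from T cells, at 0.25 and 0.29. The mean of 7 proliferation markers, with Pcna (326 ± 51.3 CPM in KO libraries and 286 ± 57.2 CPM in WT libraries) and Mki67 (166 ± 37.7 CPM in KO libraries and 166 ± 38.7 CPM in WT libraries) the highest, was lowest there, at -0.42 in KO 1 and -0.36 in WT 2, as were the mean of 9 neutrophil markers, at -0.49 and -0.38, the mean of 6 fibroblast and stromal markers, at -0.52 and -0.32, and Itgax, at -0.51 and -0.52. The mean of all 8 tested dendritic cell markers, Itgax among them, stood at -0.12 in KO 1 and 0.04 in WT 2. The part of these markers in the levels of Cd80, Cd86 and Icosl was not tested. With KO 1 and WT 2 left out together, 0 of the 10 genes passed, and edgeR gave an unadjusted p under 0.05 for 1, Cd86 (log2 fold change 0.25). The difference in the log2 ratio of Cd86 to Cd80 was 0.44 with KO 1 and WT 2 left out together (exact permutation p = 0.333, the smallest that 2 against 2 libraries allow). Single libraries moved these values in either direction. Cd80 had a log2 fold change of -0.33 without KO 1 and -0.038 without WT 2, that of Icosl -0.23 and -0.038, and that of Cd86 0.10 and 0.33, with 0.090 without WT 3. An unadjusted p under 0.05 was given by edgeR for Cd80 and Icosl without KO 1 and for Cd86 without WT 2. The same held for Lgals9 without KO 3 (log2 fold change 0.17). None of these passed after adjustment. For the fits with libraries left out, the share of all tested genes at this unadjusted p was not determined. Whether these genes exceed that share is therefore not known.

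**Figure D4:**
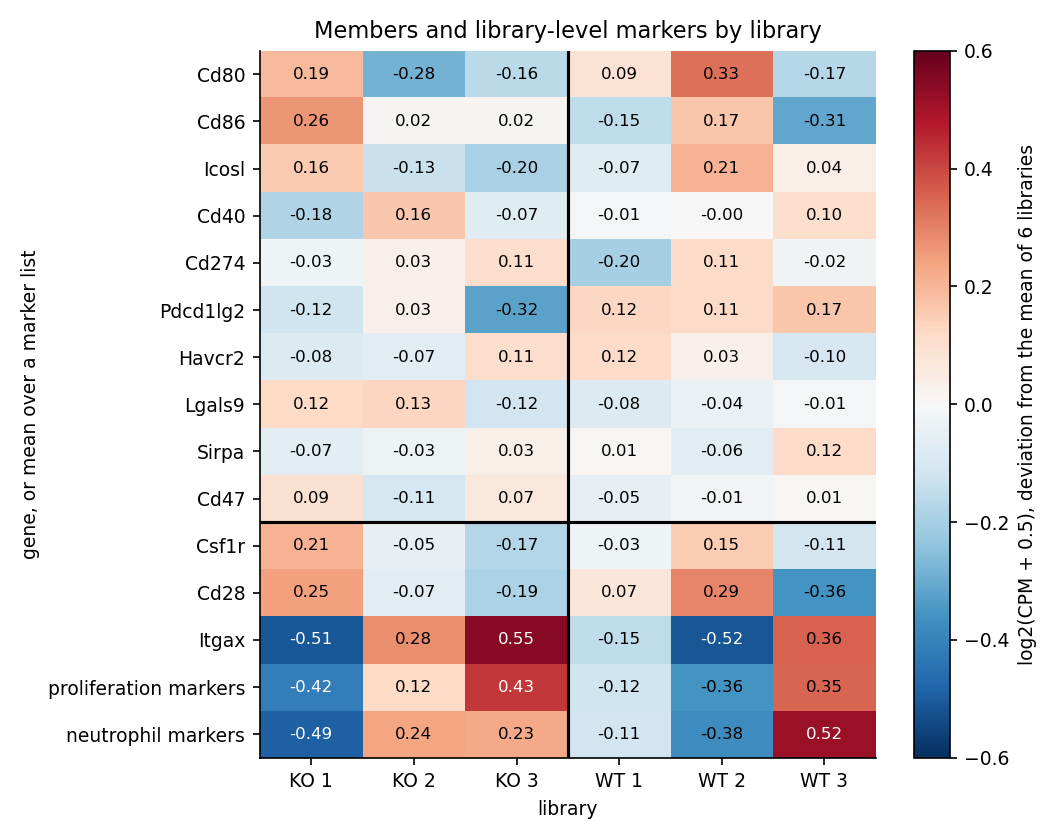
Deviation of log2(CPM + 0.5) from the mean of the 6 libraries for the 10 genes (above the line) and for Csf1r, Cd28, Itgax and the means of the proliferation and neutrophil marker lists (below it), with KO libraries left and WT libraries right. Cd80, Cd86 and Icosl are above 0 in KO 1 and WT 2, where the proliferation and neutrophil lists are lowest, at -0.42 and -0.36 for proliferation.

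The partners and regulators of the 10 genes were read from the same fit. Of 4 tested further members of the B7 and CD28 families, 0 passed, 1 was above 0 and 3 below, with a median log2 fold change of -0.01. Vsir, which encodes the inhibitory ligand VISTA, was at 909 ± 45.3 CPM in KO libraries and 910 ± 37.2 CPM in WT libraries (SD, n = 3 each). Cd276, which encodes B7-H3, was at 5.66 ± 1.69 CPM in KO libraries and 4.95 ± 0.626 CPM in WT libraries (log2 fold change 0.19), and Icos and Cd28 had -0.27 and -0.02. The genes for CTLA-4 and PD-1, Ctla4 and Pdcd1, were at or below 0.108 CPM in every library and were not tested.

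Among TNF superfamily genes of co-stimulation, 6 were tested and 0 passed, with 4 above 0 and a median of 0.19. Tnfsf14, which encodes the ligand LIGHT, was at 4.82, 4.21 and 4.94 CPM in KO 1, KO 2 and KO 3, against 3.96, 3.84 and 3.56 CPM in WT 1, WT 2 and WT 3. These values did not overlap, but the log2 fold change of 0.30 did not pass (SE 0.19, edgeR adjusted p = 0.999949). Tnfrsf18, which encodes GITR, did not overlap either, at 0.296 ± 0.0383 CPM in KO libraries and 0.109 ± 0.0616 CPM in WT libraries (SD, n = 3 each). Its log2 fold change was 1.40 (SE 0.69). In WT 1 it was at only 0.0542 CPM, where 3 counts correspond to 0.0813 CPM. The genotypes did not overlap for these 2 of the 6, beside 8.65% of all tested genes. Tnfrsf14, a receptor of LIGHT, was at 145 ± 6.48 CPM in KO libraries and 153 ± 4.56 CPM in WT libraries.

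Of 22 tested genes for other inhibitory or adhesion proteins of myeloid cells, 0 passed, 8 were above 0 and 14 below, with a median of -0.09. An unadjusted p under 0.05 was given for 3 of the 22, beside 3.10% of all tested genes. The same 3 were lower in every KO library than in every WT library, where 8.65% of all tested genes did not overlap in either direction. Vcam1, an adhesion molecule for integrin-bearing leukocytes, was at 41.7, 80.1 and 70.5 CPM in KO 1, KO 2 and KO 3, against 120, 152 and 201 CPM in WT 1, WT 2 and WT 3 (log2 fold change -1.30, SE 0.32, edgeR adjusted p = 0.999949). Timd4, a relative of TIM-3 that binds phosphatidylserine on dying cells, was at 0.445 ± 0.114 CPM in KO libraries and 2.43 ± 1.26 CPM in WT libraries (SD, n = 3 each; log2 fold change -2.44, SE 0.47). It missed the threshold in edgeR (adjusted p = 0.478) and passed in DESeq2 (adjusted p = 0.000852). Vsig4, which encodes a complement receptor that also inhibits T cells, was at 0.662 ± 0.232 CPM in KO libraries and 2.26 ± 1.11 CPM in WT libraries (log2 fold change -1.77, SE 0.44, edgeR adjusted p = 0.999949).

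Around SIRPA and CD47, 0 of 11 tested partners passed, with a median of -0.02. The genotypes did not overlap for 3 of the 11, beside 8.65% of all tested genes, and 1 had an unadjusted p under 0.05, beside 3.10%. That 1 was Fyb, which encodes the adaptor ADAP, at 842 ± 21.9 CPM in KO libraries and 935 ± 30.2 CPM in WT libraries (log2 fold change -0.15). Ptpn6, which encodes SHP-1, a phosphatase recruited by SIRPA, was at 328 ± 5.94 CPM in KO libraries and 357 ± 28.1 CPM in WT libraries (-0.12), and Calr, which encodes calreticulin, a phagocytic signal on dying cells, had 0.10. In CD40 signalling, 0 of 15 tested genes passed, and 11 were below 0, with a median of -0.04. Nfkb2, Rela and Birc2, which encode NF-kB subunits and a ubiquitin ligase, had log2 fold changes of -0.13, -0.14 and -0.16. The genotypes did not overlap for 2 of the 15, Nfkb2 and Birc2, beside 8.65% of all tested genes. All 15 had an interval within 1.5-fold in either direction, beside 72.4% of all tested genes.

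Of 24 tested regulators of PD-L1 and PD-L2, 0 passed, 10 were above 0 and 14 below, with a median of -0.02. Ifngr2, which encodes a chain of the receptor for interferon gamma, was at 184, 180 and 175 CPM in KO 1, KO 2 and KO 3, against 196, 199 and 189 CPM in WT 1, WT 2 and WT 3. These values did not overlap, and the log2 fold change was -0.12 with an interval from -0.23 to -0.00022. It did not pass after adjustment (edgeR adjusted p = 0.999949). The genotypes did not overlap for 2 of the 24, Ifngr2 and Usp22, the latter higher in KO, beside 8.65% of all tested genes. In edgeR 1 of the 24 had an unadjusted p under 0.05, beside 3.10% of all tested genes. Usp22, a deubiquitinase gene, and Socs3, a gene for a feedback inhibitor of cytokine signalling, had 0.11 and -0.33. Of 6 tested genes linked to the turnover of CD80 and CD86, 0 passed and 5 were above 0, with a median of 0.02. Marchf1, which encodes a ubiquitin ligase that removes CD86 from the cell surface, was at 108 ± 6.24 CPM in KO libraries and 103 ± 7.36 CPM in WT libraries (SD, n = 3 each; log2 fold change 0.08), and Marchf8 and Rab11a had 0.03 and 0.03. In these 7 pathway lists no gene passed in limma voom, and in DESeq2 Timd4 was the only one.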

How the data were processed

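RNA of BMDMs was isolated with TRIzol and sequenced from VAHTS Universal V6 libraries, according to the labels' protocols. The authors deposited raw read counts per gene for 6 libraries in 1 table. Per the submitters' processing notes the tools were fastp, HISAT2 and HTSeq, with build mm10; versions, annotation, strand setting and gene filters are not given in those notes. Reads of overlapping genes and of close paralogs may therefore be shared or split.

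Counts were tested with edgeR 4.0.16 in R 4.3.3 (TMM factors, filterByExpr by genotype with a minimum count of 10, robust quasi-likelihood fit, KO minus WT), with Benjamini-Hochberg adjustment over 12605 genes. Standard errors were taken as |log2 fold change| over the root of F, intervals are at 95%, and CPM use TMM-scaled library sizes. No library pair of a genotype agreed within sampling noise (chi-square per degree of freedom between 11.4 and 34.2). A floor of 3 counts covers counting error only.

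Single values were compared by an exact two-sided permutation test over libraries (scipy 1.17.1). Merged exon lengths came from GENCODE M21 and were found for 98.1% of tested genes; coordinates and promoters came from RefSeq on GRCm38.p6. Alternatives were other normalizations, count filters, DESeq2 1.42.0, limma 3.58.1 voom, no robust estimation, a replicate block and leaving out libraries. The edgeR fit was also run on simulated counts. It called 46 of 67 genes changed 1.5-fold, 61 of 67 changed 2-fold and 65 of 66 changed 4-fold, with 16 false calls. The changed genes were drawn from those with a mean of at least 1 CPM, so genes as low as Pdcd1lg2 were not covered. Simulated counts were drawn independently for each gene, without patterns that genes share across libraries. They also held far more changed genes than the 4 that passed in the data, which loosens the adjusted threshold. The shares called are therefore not the power of the test in these data. The 10 genes, the lists and the tests were chosen with earlier results of these data known. Named genes were the 10 members, Trmt61a and Lyz2, any gene of a pathway list past the threshold with up to 3 further of smallest p, and the 2 highest genes of each marker list. Lyz1, Cd163, Vsir, Ctla4, Pdcd1 and markers named for their low level were chosen after their values were seen.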

Additional observations from a re-analysis of the deposited data

How the results depend on the processing

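No alternative brought any of the 10 genes past the threshold: the count was 0 under all 15, the replicate block included. Their adjusted p lay between 0.910 and 0.999965. Pdcd1lg2 was not tested with the filter of at least 1 CPM in 3 libraries. Over the whole table the 4 calls became 16 with DESeq2 and 8 with the replicate block, and lay between 3 and 5 when a library was left out. Among pathway genes the count of 0 became 1 with DESeq2 and stayed at 0 with the replicate block. The labels give the genotypes the same replicate numbers. The deviations of same-numbered libraries correlated at 0.04 for number 1, -0.19 for number 2 and 0.36 for number 3. The highest correlation, 0.43, was that of KO 1 with WT 2, which differ in number. As a block the replicate numbers gave a log2 difference of 0.37 for Cd86 over Cd80 and 0.54 for Cd274 over Pdcd1lg2. The exact p was 0.25 for each, the smallest for 3 pairs.

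Some directions turned when single libraries were left out. The log2 fold change then lay between -0.0082 and 0.15 for Cd274, -0.16 and 0.018 for Cd40, -0.094 and 0.023 for Havcr2, -0.089 and 0.0046 for Sirpa, and -0.0012 and 0.10 for Cd47. It lay between -0.18 and 0.13 for Cd28, -0.010 and 0.17 for Calr, and -0.018 and 0.063 for Rab11a. Cd276, at 0.19 with all libraries, lay between -0.038 and 0.39. With KO 1 and WT 2 left out together, Cd40 stood at 0.00044, Havcr2 at 0.011 and Cd47 at -0.00010; the cause was not tested. Cd80, Cd86, Icosl, Pdcd1lg2 and Lgals9 kept their direction under every alternative that tested them, as did the 4 ratios under their 10. Lyz2 lost its call without KO 2 (edgeR adjusted p = 0.147) or WT 1 (0.0671). Pdcd1lg2 had the fewest counts of the 10 genes, 19 to 35 in a library; how much of its error is counting error was not tested.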
